A study of Rattus norvegicus with 4 samples.

Results

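Synaptotagmins are the calcium sensors and membrane-trafficking proteins of secretory vesicles, and 10 of them, Syt1, Syt2, Syt3, Syt4, Syt5, Syt6, Syt7, Syt11, Syt13 and Syt17, were followed here in rat cortical neurons given topotecan. They were taken by gene name from a deposited table of 21648 gene identifiers, each name matching 1 identifier, and all 10 passed the low-count filter that left 12162 genes to test. The cells were cortical neurons of rat embryos of day 18 from a commercial supplier, grown in neuronal medium. The DMSO group, given the solvent, and the topotecan group, given an inhibitor of topoisomerase I to lower the expression of long genes, had 2 libraries of total RNA each. Dose, time of exposure, strain and sex are not stated in the labels, and no genetic change is named for either group. The libraries held between 22957786 and 31181382 counts. Nothing in the labels says that the 2 libraries of a group came from separate cultures, so p-values reflect only how these libraries varied, possibly for technical reasons.

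A typical synaptotagmin has a segment that crosses the vesicle membrane and a pair of C2 domains on the cytoplasmic side. In the calcium-binding members, aspartates in the C2 domains hold calcium ions, and the protein then inserts into the target membrane and acts on the SNARE complex to trigger fusion. Syt1 is the main sensor for fast transmitter release in forebrain neurons, Syt2 takes this part at many fast synapses of the hindbrain and in some inhibitory neurons, and Syt7 is a slower sensor of higher affinity. Syt4 and Syt11 lack one of the aspartates in the first C2 domain, and Syt13 lacks most of them. Topoisomerase I relieves the twist that transcription puts into DNA, and its inhibition is known to slow elongation through long genes.

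The start regions of Syt4, Syt1 and Syt11 are shown first, because these members differed in direction or size of change and a reader can see which common promoter motifs each holds. Sequences are from RefSeq (GRCr8), in which 6 of the 10 members had a window, with the 250 bases before a transcript start used here. Syt3, Syt6 and Syt2 also had one, at starts 783, 425 and 97488 bases inside the gene, so that the Syt2 window is an internal stretch and not its outermost start region. Syt5, Syt7, Syt13 and Syt17 had none. For Syt4 the window ends at the outermost start of the gene (chr18:23320864-23321113, minus strand), with the matches to the searched motifs in capitals. For Syt1 (chr7:46244214-46244463, minus strand) and Syt11 (chr2:176529776-176530025, minus strand), whose listed starts lie 247 and 579 bases inside the gene, only 30 bases around 1 capitalised match are given. The Syt1 stretch also holds another GC box in lower case, which follows the capitals directly (bases 20 to 15 before the start).
Syt4, 250 bases: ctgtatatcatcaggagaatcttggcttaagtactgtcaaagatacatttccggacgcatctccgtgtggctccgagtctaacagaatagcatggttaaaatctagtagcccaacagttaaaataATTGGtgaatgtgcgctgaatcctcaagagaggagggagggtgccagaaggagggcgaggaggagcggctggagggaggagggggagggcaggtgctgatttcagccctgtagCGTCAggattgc
Syt1, GC box: ggggtgtgtgcaGGGCGGgggcggccagct
Syt11, CCAAT box: cctacactttttATTGGgctttgaaattct
The motifs searched, on both strands, were the TATA box (TATAAA), the CCAAT box (CCAAT), the GC box (GGGCGG), the E-box in 2 forms (CACGTG or the form CAGCTG), and the cyclic AMP response element, as its half-site (TGACG) and as the full site (TGACGTCA), which contains the half-site. CCAAT was found in the windows of Syt4 and Syt11, and in 34.0% of all 33469 windows. GGGCGG was found in those of Syt1, Syt3, Syt6 and Syt11, and in 30.5% of all windows. TGACG was found in that of Syt4, and in 18.2% of all, whereas TATAAA, found in 12.9% of all, was in none of the 6. CAGCTG was found in those of Syt1, Syt2 and Syt6 (11.97% of all), CACGTG in that of Syt6 (5.59% of all), and the full TGACGTCA in none (1.59% of all). The GC content of the window was 51.2% for Syt4, 54.8% for Syt11 and 66.0% for Syt1, against a median of 51.2% over all windows. A match is a description of the letters and shows no binding.

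The members changed in both directions in topotecan, as tested genes in general did. Syt1, Syt2, Syt17 and Syt11 fell, Syt4 and Syt5 rose, and Syt3, Syt6, Syt7 and Syt13 did not pass the test (edgeR's quasi-likelihood test with p adjusted by Benjamini-Hochberg over all tested genes, threshold 0.05). Thus 4 of 10 members were lower, where 23.5% of all tested genes were lower, and 2 of 10 were higher, where 16.2% of all were higher. The members' median log2 fold change was 0.13, beside -0.01 over all tested genes. The falls of Syt1, Syt2 and Syt17 were between 2.78-fold and 5.88-fold, while the fall of Syt11 and the rises of Syt4 and Syt5 were 1.36-fold or less. Levels are given as CPM, counts per 1000000 library counts after scaling, and are compared within a gene only, since transcript lengths were not used.

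**Figure D1:**
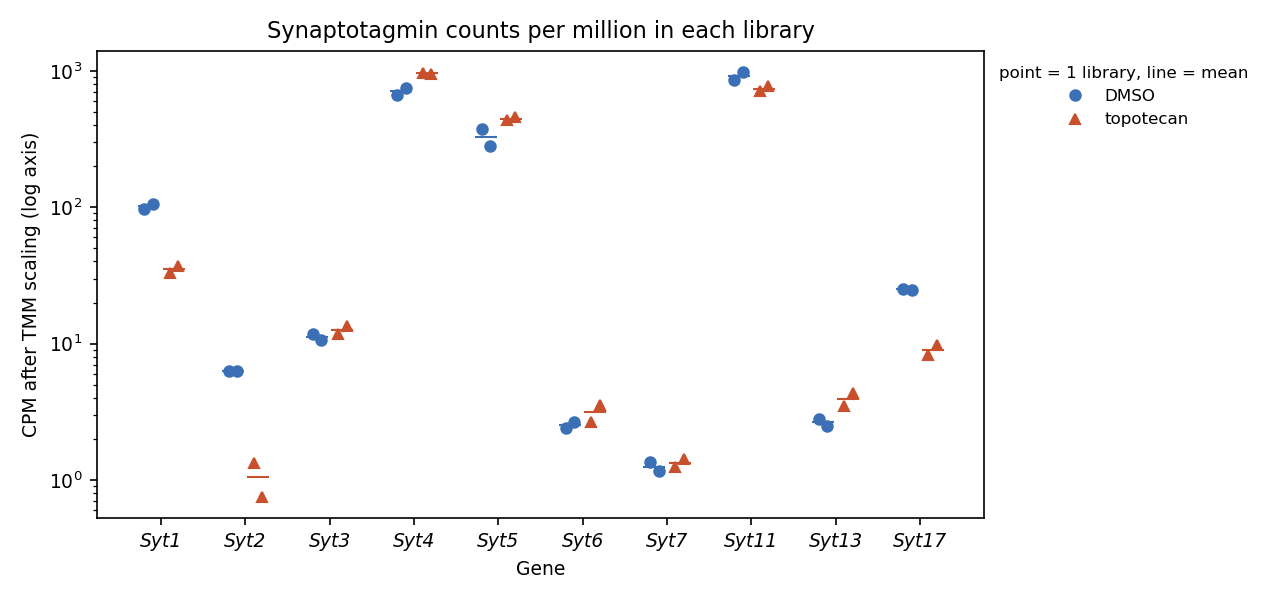
CPM (log axis) of the 10 synaptotagmins in each of the 4 libraries, with DMSO as blue circles, topotecan as red triangles and a line at each group's mean (n = 2). The triangles of Syt1, Syt2 and Syt17 lie far below the circles, those of Syt4 and Syt5 a little above, and those of Syt3 and Syt7 among them.

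Syt1 and Syt2, the sensors of fast release among the 10, fell. Syt1 (ENSRNOG00000006426), whose gene spans 545 kb, was at 96.8 and 106 CPM in DMSO and at 33.1 and 37.2 CPM in topotecan. Both topotecan libraries were below both DMSO libraries, with means of 101 ± 6.41 and 35.2 ± 2.94 CPM (SD, n = 2 each). The log2 fold change was -1.53 (SE 0.10, 95% interval -1.75 to -1.31, edgeR adjusted p = 4.28e-08), a 2.88-fold fall. Syt2 (ENSRNOG00000004756), the closest relative of Syt1 and a gene of 110 kb, had 172 and 148 counts with DMSO and 41 and 19 with topotecan. This was 6.24 and 6.34 CPM in DMSO and 1.34 and 0.753 CPM in topotecan, so the groups were apart although the topotecan libraries differed by a ratio of 1.78, with an exact 95% counting interval reaching up to 3.24. Its log2 fold change of -2.56 (SE 0.26, 95% interval -3.11 to -2.0, edgeR adjusted p = 2.94e-06) was the lowest of the 10 members. Syt9, another gene of this sensor class and not one of the 10, had between 5 and 16 counts per library, and its interval from -1.29 to 1.28 does not resolve a change in either direction. RefSeq lists SytIX as an older name of Syt5 and Sytv as one of Syt9, so reports under these names may refer to the other gene.

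Syt17, also known as B/K protein, has the pair of C2 domains but no segment across the membrane and is known from the Golgi and endosomes. Syt17 (ENSRNOG00000017136, 66.3 kb) was at 25.1 and 24.9 CPM in DMSO and at 8.29 and 9.72 CPM in topotecan. The DMSO libraries lay close together and both topotecan libraries lay well below them. The log2 fold change was -1.48 (SE 0.14, 95% interval -1.77 to -1.18, edgeR adjusted p = 1.33e-06), a 2.78-fold fall.

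Among the 10, no calcium-binding member linked to slower release or to other compartments passed the test for a fall, and Syt5 rose. Falls were not limited to the sensors of fast release. Syt17 fell, as did Syt10, a calcium sensor outside the 10 (log2 fold change -1.58). Syt5 (ENSRNOG00000018217, 7.72 kb), which is found on dense-core vesicles, was at 377 and 281 CPM in DMSO and at 436 and 459.6 CPM in topotecan. The DMSO libraries differed by a ratio of 1.34 (exact 95% counting interval 1.30 to 1.38), and both were below the topotecan libraries. Its log2 fold change was 0.44 (SE 0.11, 95% interval 0.21 to 0.68, edgeR adjusted p = 0.00596). It was 0.68 without DMSO replicate 1 and 0.25 without DMSO replicate 2, and passed in both. Syt7 (ENSRNOG00000026432, 62.6 kb), the slow sensor of release and of lysosome fusion, had 37 and 27 counts with DMSO and 38 and 36 with topotecan. These groups overlapped in CPM, and the interval of its log2 fold change, -0.59 to 0.76, leaves room for changes of either sign (estimate 0.08, edgeR adjusted p = 0.856). Syt3 (ENSRNOG00000019318, 14.7 kb), a high-affinity sensor also placed at postsynaptic membranes, was at 11.8 and 10.5 CPM in DMSO and at 11.7 and 13.5 CPM in topotecan. The groups overlapped, and the log2 fold change of 0.17 did not pass (95% interval -0.15 to 0.50, edgeR adjusted p = 0.379). Syt6 (ENSRNOG00000019163, 59.7 kb), a relative of Syt3 known from the sperm acrosome, had 66 and 62 counts with DMSO and 82 and 90 with topotecan. Its topotecan libraries were above its DMSO libraries by a narrow margin in CPM (2.68 and 3.57 against 2.39 and 2.66), and the log2 fold change of 0.30 did not pass (95% interval -0.21 to 0.82, edgeR adjusted p = 0.346).

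Of the members that do not bind calcium in the usual way, Syt4 rose, Syt11 fell and Syt13 did not pass. Syt4 (ENSRNOG00000017333, 9.41 kb), an activity-regulated protein of dense-core vesicles, was at 663 and 752 CPM in DMSO and at 967 and 949.6 CPM in topotecan. Both topotecan libraries were above both DMSO libraries. The log2 fold change was 0.44 (SE 0.08, 95% interval 0.27 to 0.61, edgeR adjusted p = 5.55e-04), a 1.35-fold rise. Syt11 (ENSRNOG00000020279, 26.5 kb), which has the same aspartate missing as Syt4 and is known to restrain endocytosis, was at 859 and 982 CPM in DMSO and at 709.9 and 770.1 CPM in topotecan. All topotecan values were below the DMSO values, with a gap smaller than the distance between the DMSO libraries. The log2 fold change was -0.32 (SE 0.08, 95% interval -0.49 to -0.14, edgeR adjusted p = 0.00794), a 1.24-fold fall. Without topotecan replicate 1 Syt11 did not pass (log2 fold change -0.25, edgeR adjusted p = 0.0968, with a range from 5.14e-05 to 0.0968 over all settings tried), and with scaling to short pan-neuronal genes its log2 fold change was -0.60. Syt13 (ENSRNOG00000008000, 40.4 kb), a sorting protein that does not bind calcium, had 77 and 58 counts with DMSO and 106 and 110 with topotecan. At 2.79 and 2.48 against 3.46 and 4.36 CPM the groups were apart, and the log2 fold change of 0.56 (SE 0.22) missed the threshold with an edgeR adjusted p of 0.0632. Syt13 did pass without the low-count filter (0.57, adjusted p = 0.0368) and without topotecan replicate 1 (0.73, adjusted p = 0.0470).

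Counted by separation alone, 4 members had both topotecan libraries below both DMSO libraries, where 36.9% of all tested genes did, and another 4 had both above, where 33.7% of all did. Syt3 and Syt7 were the members whose groups overlapped.

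The rises of Syt4 and Syt5 passed with RLE scaling (0.45 and 0.46) and with library totals (0.40 and 0.41), but not with scaling to neuronal genes. With libraries scaled to 10 short pan-neuronal genes, which moved the median of all genes to -0.28, Syt4 was at 0.16 (edgeR adjusted p = 0.379) and Syt5 at 0.18 (adjusted p = 0.277), and neither passed. All genes then split into 4183 lower and 304 higher, against 2854 and 1970 with the main scaling. Syt1, Syt2, Syt17 and Syt11 were lower under every scaling tried. Syt3 and Syt7, at -0.09 and -0.18 with the neuronal scaling, changed sign. Several of the 10 genes used for it were themselves higher with the main scaling, such as Uchl1 (0.78), Stmn3 (0.42) and Tubb3 (0.35). Only Thy1 (-0.45) among them was lower.

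Ratios between members need no scaling of the libraries, and 5 pairs were compared. Syt4 counts were 0.772 and 0.766 times those of Syt11 in DMSO and 1.36 and 1.23 times in topotecan, a change of 0.75 in the log2 ratio. The order of these paralogues in counts thus turned round in both topotecan libraries. The log2 ratio of Syt1 to Syt11 was -3.15 and -3.21 with DMSO and -4.42 and -4.37 with topotecan. That of Syt1 to Syt7 went from 6.17 and 6.52 to 4.74 and 4.71. Syt1 was 15.5 and 16.7 times Syt2 in counts in DMSO and 24.7 and 49.4 times in topotecan, so the ratio was higher in both topotecan libraries. For these 4 pairs the groups did not overlap, and the exact 2-sided permutation p was 0.333, the smallest that 2 libraries against 2 can give (0.417 adjusted over the 5 pairs). The log2 ratio of Syt3 to Syt6 was 2.30 and 1.99 with DMSO and 2.13 and 1.92 with topotecan, which overlapped (exact permutation p = 0.667).

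**Figure D2:**
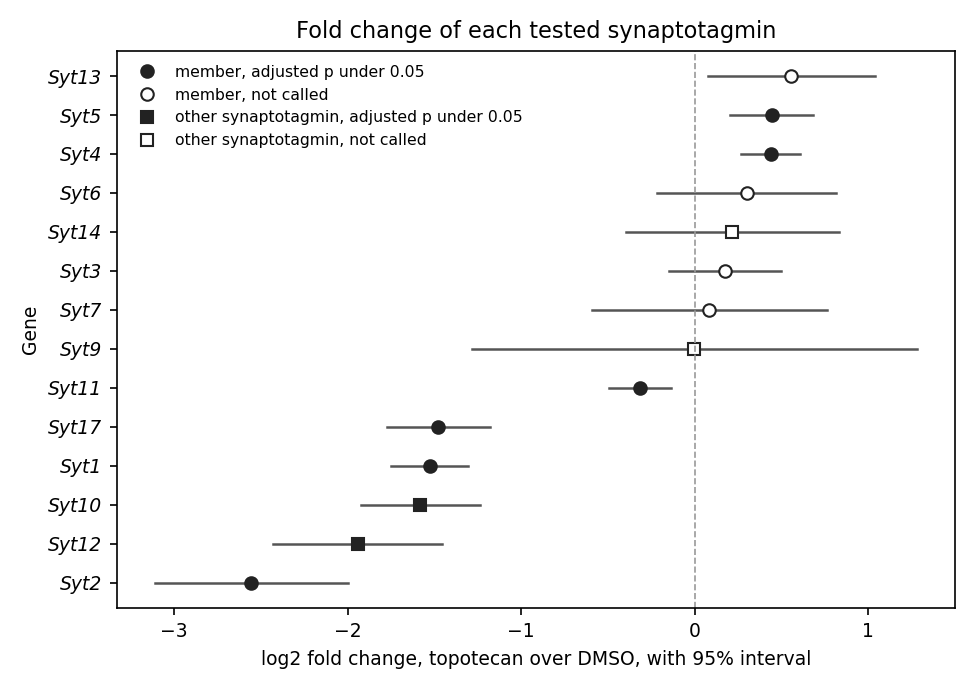
Log2 fold changes of topotecan over DMSO for the 14 tested synaptotagmins, with 95% intervals from the edgeR fit as bars. Circles are the 10 members, squares are other synaptotagmins, and filled symbols had an adjusted p under 0.05. Syt2 is lowest at -2.56 and Syt13 is highest at 0.56 without passing.

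Synaptotagmins outside the 10 had mixed values too. Of 7 others listed, 5 had a row, 4 were tested, 2 fell and none rose, with a median of -0.79, where 23.5% of all tested genes fell and 16.2% rose. Syt10, a calcium sensor of growth factor release in the olfactory bulb, had 359 and 299 counts with DMSO and 134 and 107 with topotecan. It spans 63.2 kb and had a log2 fold change of -1.58 (SE 0.16, edgeR adjusted p = 2.94e-06). Syt12, which does not bind calcium and sits on synaptic vesicles, had 233 and 155 counts with DMSO and 51 and 58 with topotecan, with a log2 fold change of -1.94 (SE 0.23, edgeR adjusted p = 1.19e-05). Syt14, at 46 and 65 counts with DMSO and 88 and 56 with topotecan, did not pass (0.22, 95% interval -0.40 to 0.83). Syt8 had no count in any library, which allows up to 0.131 CPM in the shallowest. Syt15 and Syt16 were not analysed here.

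The makeup of the family's counts differed between the groups, while the ranges of its total overlapped. All synaptotagmins together took 2069 and 2192 CPM in DMSO and 2184 and 2259 CPM in topotecan. Syt4, Syt5 and Syt11 held 91.8% and 91.9% of these counts in DMSO and 96.7% and 96.5% in topotecan. Outside these 3 genes the sum dropped from 170.0 and 176 to 71.3 and 79.6 CPM. The share of Syt1 was 4.68% and 4.83% with DMSO and 1.51% and 1.65% with topotecan. Syt4 took 32.1% and 34.3% in DMSO and 44.3% and 42.0% in topotecan, and Syt11 went from 41.5% and 44.8% to 32.5% and 34.1%. The exact 95% binomial intervals of Syt1 were 4.51% to 4.85% and 4.65% to 5.02% in DMSO and 1.42% to 1.61% and 1.55% to 1.76% in topotecan. These intervals, like those of the ratios above, cover counting error only. Shares of counts are not shares of molecules, since a longer transcript gives more counts.

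**Figure D3:**
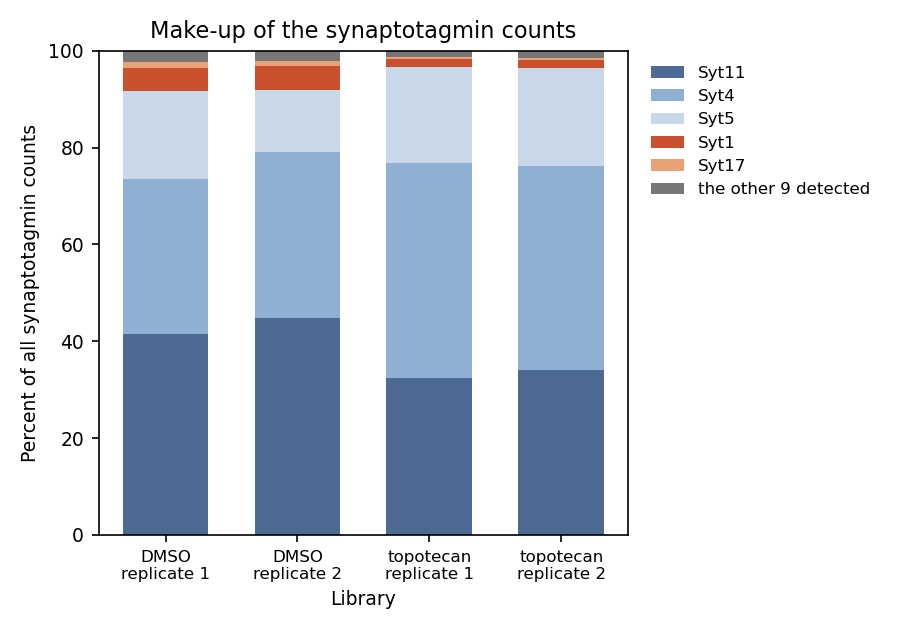
Percent of all synaptotagmin counts held by each gene in the 4 libraries, as stacked bars, with the 9 least abundant detected genes summed in grey. The Syt4 segment is larger and the Syt11 and Syt1 segments are smaller in both topotecan libraries, where Syt1 falls from 4.68% and 4.83% to 1.51% and 1.65%.

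Since topotecan was given to lower long genes, each member was set beside genes of similar span. Spans are from RefSeq and describe the gene, not the transcript. Among the 10 members, gene span and log2 fold change had a Spearman's rho of -0.77, and among all 14 tested synaptotagmins it was -0.48. These are descriptions over genes of the same 4 libraries. Syt1 lay inside the range of its class. Of 176 tested genes of 500 kb or more 77.8% were lower, their median was -1.19, and 59 had a lower log2 fold change than Syt1. Syt2 lay far below its class, with 55 of 1120 genes of 100 to 200 kb lower than it, where the class median was -0.19. This class rests on the full span of Syt2. The start of its window lies 97488 bases inside the gene, and which start these cells used was not tested. Syt17 also lay far below, with 327 of 3427 genes of 30 to 100 kb lower than it (class median -0.07), as did Syt10 (308) and Syt12 (267) in the same class. Syt6, Syt7 and Syt13 belong to this class as well and had positive estimates, with Syt13 above 94.5% of it. Syt17 and Syt7 differ little in span, 66.3 and 62.6 kb, and had log2 fold changes of -1.48 and 0.08. Syt11, at -0.32 among 3694 genes of 10 to 30 kb, had 24.3% of its class below it. Syt4 and Syt5, both under 10 kb, stood above 81.4% and 81.9% of 2752 genes, of which 25.9% were higher in topotecan. Syt9 and Syt14, at 180.5 and 152 kb, were not called.

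**Figure D4:**
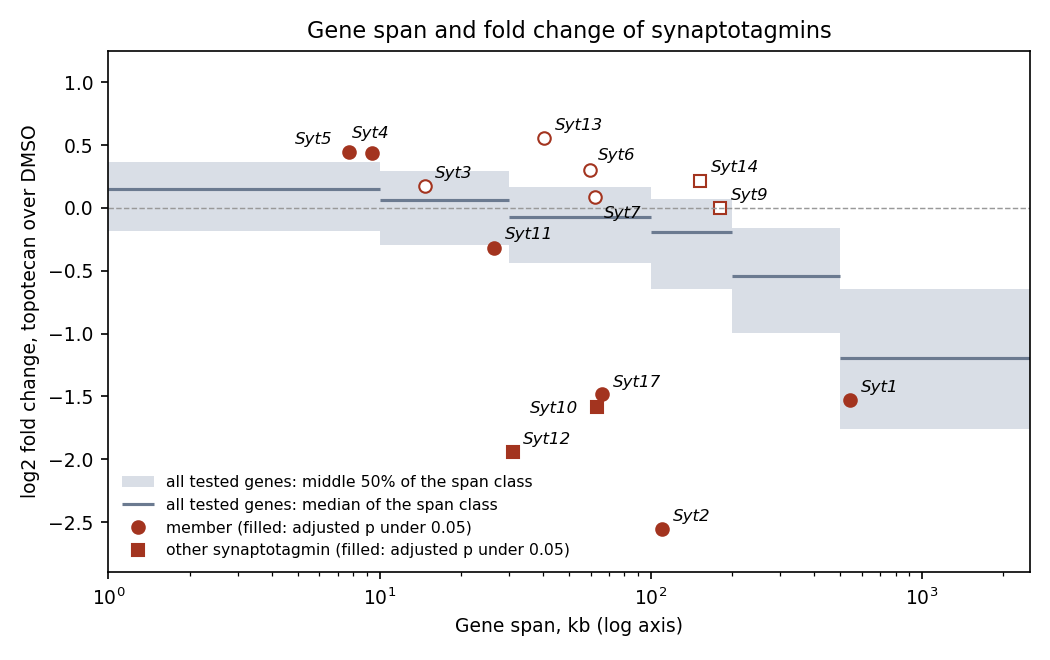
Log2 fold change of topotecan over DMSO against gene span in kb (log axis) for the 14 tested synaptotagmins, over all tested genes as grey bands (middle 50% of each span class) with lines at the class medians. The outer limits of the first and last band are drawn at the axis ends. Syt1 lies in the band of the longest genes, while Syt2, Syt12, Syt10 and Syt17 lie well below the bands of their classes.

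Other cell types changed in the same libraries. Pan-neuronal markers were high in all 4, at a summed 32250 and 29232 CPM in DMSO and 36498 and 37535 CPM in topotecan. Of 16 tested, 2 were lower and 8 higher (all tested genes, 23.5% and 16.2%). The most abundant were Tubb3 (0.35, edgeR adjusted p = 0.00869) and Stmn2 (0.04, not passed), and the 2 lower ones were Thy1 (-0.45) and Rbfox3 (-0.78). Astrocyte markers summed to 4699 and 4758 CPM in DMSO and to 118 and 128 CPM in topotecan, and all 14 fell, with Slc1a3 at -7.49 and Aldoc at -3.63 on the log2 scale. Oligodendrocyte lineage markers summed to 4224 and 4526 CPM in DMSO and 138 and 124 CPM in topotecan, and all 14 fell, with Cnp at -4.46 and Sox10 at 0 counts in both topotecan libraries. Of 8 progenitor markers 7 fell, among them Fabp7 (-9.41) and Sox2 (-2.40), from 376 and 351 to 16.2 and 15.3 CPM summed over the list. Syt11 is known from glia as well as neurons, and the part of these cells in its fall, or in the other falls, was not tested. In bulk RNA, fewer cells of a type and less RNA per cell cannot be told apart. Microglia markers were at or near 0, with a summed 0.163 to 0.557 CPM over 8 genes, none tested, and Aif1, C1qa, C1qb, Cx3cr1 and Tmem119 at 0 in every library. Endothelial markers summed to 2.14 and 1.88 CPM in DMSO and 0.555 and 0.436 in topotecan, with Cdh5 at 0 throughout and the 1 tested gene, Kdr, lower. Fibroblast and mural markers summed to 8.27 and 9.04 CPM in DMSO and 3.65 and 4.72 in topotecan, with 2 of 3 tested lower, Postn among them, and Lum higher.

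Syt2 marks fast-spiking inhibitory neurons in the mature cortex, so interneuron markers stand beside it. Of 10 tested 3 fell and 4 rose, where 23.5% of all tested genes fell and 16.2% rose, with summed levels of 525 and 472 CPM in DMSO and 722 and 618 CPM in topotecan. Sst, the somatostatin gene, rose by 1.80 and Gad1, a GABA synthesis gene, fell by 0.43 on the log2 scale. Sst went from 106 and 80.4 CPM in DMSO to 335 and 317 CPM in topotecan, and the rise of the sum rests on this gene. Gad1 went from 179 and 159 CPM to 132 and 118 CPM. Lhx6 (1.14), Dlx1 (0.89) and Npy (0.58) also rose, and Gad2 (-0.71) also fell. Pvalb, the parvalbumin gene of fast-spiking cells, named after its values were seen, had 82 and 62 counts with DMSO and 0 and 1 with topotecan. Its low counts are in the same libraries as those of Syt2, and whether the cells with both genes were fewer was not tested. Of 12 glutamatergic markers 2 fell and 6 rose, against the same shares of all genes, with Neurod6 at 1.23 and Slc17a7 at 0.30. The 2 that fell were Rorb (-2.29) and Cux1 (-0.67).

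The partners of synaptotagmins in release and retrieval were counted by lists that were chosen with earlier results of these data known. Of 17 tested genes for membrane fusion 5 fell and none rose, with a median of -0.04. The share of falls is near the 23.5% of all tested genes, while 16.2% of all rose. Nsf, the ATPase that takes spent SNARE complexes apart, was at -0.29 (SE 0.07, edgeR adjusted p = 0.00543), its adaptor Napb at -0.31 (adjusted p = 0.0179) and Stxbp5l, a tomosyn gene that holds back SNARE assembly, at -0.83 (adjusted p = 0.00656). Cplx1 and Vamp1 also fell, while Snap25, Stx1a and Vamp2, the SNARE genes on whose products Syt1 acts at the synapse, did not pass. The count of falls was 8 with the neuronal scaling, 2 without topotecan replicate 1 and 3 without topotecan replicate 2. Syt1, at -1.53, had a lower estimate than each of the 17, of which Stxbp5l was lowest. These genes are not matched in span, since Syt1 spans 545 kb and Stxbp5l, the longest of the 17, spans 329 kb.

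Of 16 tested vesicle partner and retrieval genes 5 fell and 4 rose, with a median of 0.07, beside 23.5% lower and 16.2% higher among all tested genes. Ston2, the stonin adaptor that sorts Syt1 back from the plasma membrane, had 327 and 250 counts with DMSO and 21 and 18 with topotecan, a log2 fold change of -4.01 (SE 0.22, edgeR adjusted p = 5.63e-09). Its relative Ston1 had 23 and 31 counts in DMSO and none in topotecan, at least 19.7-fold lower taking 3 counts in the whole topotecan group as a floor. Glial markers fell in the same libraries (Aldoc -3.63, Cnp -4.46), and the part of cell types in the falls of Ston2 and Ston1 was not tested. Sh3gl2, an endophilin of vesicle retrieval, fell by 0.77 (SE 0.09). The other falls were those of Sv2b and Cltc, and the rises were those of Ap2m1, Ap2s1, Clta and Cltb, subunits of the clathrin adaptor and of clathrin. None of these rises passed with the neuronal scaling.

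Of 13 tested dense-core vesicle genes 7 fell and none rose, with a median of -0.21, beside shares of 23.5% and 16.2% over all tested genes. The falls numbered 5 with RLE scaling, DESeq2, the replicate block or either topotecan library left out. They included Cadps2 (-2.02, SE 0.18), a priming factor, Ptprn2 (-1.43, SE 0.11), a vesicle membrane protein, and Pcsk2 (-1.0, SE 0.09), a prohormone convertase. These 3 genes span 529, 752 and 303 kb. Syt4 and Syt5, which sit on such vesicles, were higher in these libraries. Of 15 tested genes for the active zone and its calcium channels 7 fell and none rose, with a median of -0.33 (all tested genes, 23.5% lower and 16.2% higher). The 7 span from 262 to 861 kb. Of all tested genes of 200 to 500 kb 55.6% were lower, and of those of 500 kb or more 77.8%. Erc1 (292 kb), Cacnb2 (345 kb) and Cacna1e (489 kb) did not pass. Erc2, an active zone scaffold of 861 kb, was at -1.56 (SE 0.17), and the channel subunits Cacna2d1 and Cacna2d3 were at -1.25 (SE 0.12) and -1.10 (SE 0.12). Of 7 tested related C2 domain genes 1 fell and none rose, with a median of -0.02, a smaller share of falls than the 23.5% of all tested genes (16.2% of all rose). The gene that fell was Mctp1 (695 kb), from 42 and 39 counts to 12 and 13 (log2 fold change -1.82, SE 0.38, edgeR adjusted p = 0.00171). Doc2a, another calcium sensor of release, at 0.16 (adjusted p = 0.444), and Esyt2, a tether between membranes, at 0.27 (adjusted p = 0.338), did not pass. Without DMSO replicate 1 the falls in this list numbered 3.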

How the data were processed

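RNA was sequenced from 2 DMSO and 2 topotecan libraries. The table the authors deposited holds whole-number counts per gene. STAR and edgeR are named, per the submitters' processing notes, without versions. Genome build, annotation, counting tool and strand setting are not stated in the labels, so overlapping or antisense genes can share reads. Per the labels' protocols a kit for small RNA was used, yet 96.3% to 97.0% of counts fell on protein-coding genes. The table's 22641 rows held 21648 identifiers, each used once. 14 had no gene name. The DMSO libraries totalled 27347410 and 22957786 counts, the topotecan libraries 31181382 and 25459488.

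Genes were tested by quasi-likelihood in edgeR (glmQLFTest, version 4.0.16 under R 4.3.3) with treatment as the only term, TMM scaling and filterByExpr (minimum count 10, minimum total 15), with Benjamini-Hochberg adjustment over 12162 genes and 2 residual degrees of freedom. It was tested on simulated data. Standard errors are the absolute log2 fold change over the square root of F. Spans are from RefSeq (GRCr8), found for 11772 tested genes through Entrez number, symbol or synonym. Members and lists were chosen with earlier results of these data known. Named were all members, all other synaptotagmins, the 3 smallest p of each other pathway list and the 2 most abundant tested genes of each cell type list. Some genes of these lists are not reported here by name. The other names complete small counts or were added after their values were seen. Alternatives were RLE scaling, library totals, scaling to 10 pan-neuronal genes under 30 kb, no filter, DESeq2 1.42.0, limma-voom (limma 3.58.1), a replicate block and leaving out each library.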

Additional observations from a re-analysis of the deposited data

How the results depend on the processing

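The count of 4 lower members held under 10 of the 11 alternatives and was 3 without topotecan replicate 1. The count of higher members was 2 to 3 with 1 library left out, 3 without the filter and 0 with the neuronal scaling, where Syt4 (0.16) and Syt5 (0.18) did not pass. With that scaling 8 fusion genes were lower, 0 vesicle partner genes and 304 of all genes were higher, and log2 fold changes changed sign for Syt3 (-0.093), Syt7 (-0.18) and Syt14 (-0.065). With 1 library left out, 2336 to 2910 of all tested genes were lower and 1208 to 2470 higher (1208 without topotecan replicate 1, 1260 without topotecan replicate 2). Lower fusion genes then numbered 2 to 5 and higher ones 0 to 1, lower related C2 domain genes 1 to 3 and higher dense-core genes 0 to 1. The log2 fold change ranged from -0.012 to 0.21 for Syt7, from -0.89 to 0.49 for Syt9 and from -0.11 to 0.62 for Syt14, and the change in the log2 ratio of Syt3 to Syt6 from -0.27 to 0.04 (0.040 without DMSO replicate 1). Syt9, at -0.003 in the fit reported, was at 0.0094 with RLE scaling and 0.0053 without the filter. The cause was not tested. With 1 library left out, the lone sample is assumed to vary like the other group. Same-numbered libraries share only a number (correlation of deviations -0.038). With the replicate block 4 members were lower and 2 higher, as without it, and of all genes 2746 were lower and 1822 higher. Depth limits Syt7 (27 to 38 counts) and Syt9 (5 to 16 counts), whose changes were not resolved.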
